A study of Mus musculus with 10 samples.

Results

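The 10 genes described here carry out or control antigen presentation by MHC class II: the chain genes H2-Aa, H2-Ab1 and H2-Eb1, the invariant chain gene Cd74, the peptide exchange genes H2-DMa, H2-DMb1, H2-DMb2, H2-Oa and H2-Ob, and the transactivator gene Ciita. They were chosen by gene symbol, for their known role and with earlier results of these data known. All 10 were found among the 54532 genes of the count table. The kidneys came from male wild-type (WT) C57BL/6 mice that were 8 weeks old at unilateral ureteral obstruction (UUO), and they were harvested after 14 days. After surgery, 5 mice were injected intraperitoneally every other day with dimethyl malonate (DMM) at 40 mg/kg, an ester prodrug that inhibits succinate dehydrogenase, and 5 control mice received PBS. Every kidney in both groups was obstructed, so that no comparison with an unobstructed kidney could be made. Each mouse gave a single bulk RNA-seq library of whole kidney.

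MHC class II molecules are pairs of an alpha and a beta chain that show peptides from the endosomal pathway to CD4 T cells. New pairs bind the invariant chain CD74, whose groove-filling remnant is exchanged for peptide with the help of H2-DM and under the restraint of H2-DO. Dendritic cells, macrophages and B cells carry most class II, interferon-gamma induces CIITA and class II in other cells, and injured tubular epithelium is among the cells in which class II has been described.

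Total counts were between 16457495 and 18078777 in the PBS libraries and between 15722527 and 19475833 in the DMM libraries. A total of 3 libraries are set apart before the results. In the deposited group means of the original comparison, the weight is 0 for PBS replicate 3 and for DMM replicate 1, and the reason is not given in the sources used here. Results of the 10 genes are given over all 10 libraries and over the other 8. Those of other gene lists are given mainly over the 8, with calls and, for most lists, medians over the 10. The 8 libraries leave out the DMM kidney that lay among PBS kidneys in most class II values and the PBS kidney that lay among DMM kidneys in proximal tubule markers, and all 10 genes had fold changes farther from 0 in this set. The 8 libraries are contained in the 10, and neither result is a check of the other. DMM replicate 4 had counts on 20029 genes, against 22898 to 24083 in the other 9 libraries. The mitochondrial genome took 2.14%, 2.30%, 3.66%, 1.97% and 2.004% of the counts of PBS replicates 1 to 5 and 2.30%, 3.79%, 4.03%, 5.62% and 4.39% of those of DMM replicates 1 to 5, so that DMM replicates 2 to 5 were above every PBS kidney and DMM replicate 1 was among them.

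The 10 genes together took 0.583%, 0.594%, 0.518%, 0.410% and 0.619% of all counts in PBS replicates 1 to 5, and 0.570%, 0.400%, 0.329%, 0.111% and 0.292% in DMM replicates 1 to 5. DMM replicate 1 lay among the PBS kidneys, DMM replicate 2 lay just below the lowest PBS kidney, replicate 4, and DMM replicates 3, 4 and 5 lay further below. The 4 DMM kidneys below the PBS range were those above it in mitochondrial share, whose part in the class II values was not tested. In whole kidneys, fewer cells that carry class II and less class II RNA per cell cannot be told apart.

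Values per library are given below as CPM, read counts relative to the total of the library after TMM scaling between libraries. H2-Aa (chromosome 17, 34282744 to 34287827, mm10) encodes the alpha chain of the A molecule. H2-Aa stood at 904, 902, 828, 628 and 943 CPM in PBS replicates 1 to 5 and at 866, 614, 464, 215 and 463 CPM in DMM replicates 1 to 5. Of the 5 DMM kidneys, 4 were below the lowest PBS kidney, and replicate 1 was inside the PBS range. Its beta chain partner H2-Ab1 (chromosome 17, 34263209 to 34269418) stood at 1059.6, 1035, 977, 734 and 1083 CPM in PBS and at 1036, 713, 588, 214 and 525 CPM in DMM kidneys. The DMM kidneys came in the same order as for H2-Aa, with replicate 1 again among the PBS kidneys and replicate 4 lowest. H2-Eb1 (chromosome 17, 34305877 to 34316199), the beta chain of the E molecule, stood at 960.2, 976, 862, 633 and 995 CPM in PBS and at 909.5, 668, 505, 148 and 499.9 CPM in DMM kidneys. Here DMM replicate 2 was above PBS replicate 4, so that 3 DMM kidneys were below all PBS kidneys.

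Over all 10 libraries the log2 fold change of DMM over PBS was -0.68 (standard error 0.30) for H2-Aa, -0.67 (0.32) for H2-Ab1 and -0.70 (0.36) for H2-Eb1, and none passed edgeR's quasi-likelihood test (adjusted p = 0.441, 0.482 and 0.509). H2-Aa averaged 841 ± 126 CPM in PBS and 524 ± 238 CPM in DMM kidneys (SD, n = 5 each). The SD among DMM kidneys was larger than that among PBS kidneys and smaller than the difference of the means. Without DMM replicate 4, H2-Eb1 was at -0.46. Over the 8 libraries the log2 fold changes were -0.94 (0.29), -0.94 (0.32) and -0.97 (0.39), and again none passed (adjusted p = 0.0913, 0.128 and 0.187, edgeR). The groups of the 8 libraries did not overlap for H2-Aa and H2-Ab1, though the gap was narrow, 628 against 614 CPM for H2-Aa and 734 against 713 CPM for H2-Ab1.

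Cd74 (chromosome 18, 60803848 to 60812646), which escorts new class II chains and fills their groove, was the member with the highest values. Cd74 stood at 2388, 2561, 2242, 1746 and 2673 CPM in PBS replicates 1 to 5 and at 2449.7, 1751, 1581, 619 and 1334 CPM in DMM replicates 1 to 5. DMM replicate 1 was above 3 of the 5 PBS kidneys, DMM replicate 2 was level with PBS replicate 4, and 3 DMM kidneys were below all PBS kidneys. The log2 fold change was -0.59 (edgeR: adjusted p = 0.497, standard error 0.29) over all 10 libraries and -0.83 (edgeR: adjusted p = 0.148, standard error 0.30) over the 8. Without DMM replicate 4 it was -0.38 over the 10 libraries.

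H2-DM, the catalyst of peptide exchange, is a pair of the H2-DMa chain with either H2-DMb1 or H2-DMb2. H2-DMa stood at 62.0, 72.5, 68.4, 49.7 and 78.6 CPM in PBS and at 76.5, 55.4, 51.5, 16.01 and 43.3 CPM in DMM kidneys. The groups overlapped, with 2 DMM kidneys, replicates 4 and 5, below the PBS range. H2-DMb1 stood at 92.2, 83.8, 90.9, 63.3 and 93.9 CPM in PBS and at 83.6, 65.4, 58.4, 32.0 and 50.9 CPM in DMM kidneys, with 3 DMM kidneys below the PBS range. H2-DMb2 stood at 37.6, 29.7, 37.7, 25.1 and 42.5 CPM in PBS and at 44.7, 26.8, 30.5, 14.01 and 16.8 CPM in DMM kidneys. Its highest value of all 10 libraries was in DMM replicate 1, and DMM replicates 4 and 5 were its lowest. The log2 fold changes over 10 and 8 libraries were -0.45 and -0.66 for H2-DMa, -0.55 and -0.69 for H2-DMb1, and -0.38 and -0.61 for H2-DMb2, and none passed in either set (adjusted p = 0.419 to 0.607 over 10 and 0.107 to 0.305 over 8, edgeR). Single libraries moved them: H2-DMa was at -0.22 over 10 and -0.39 over 8 without DMM replicate 4, and at -0.67 over 10 without DMM replicate 1. H2-DMb2 was at -0.21, -0.25 and -0.65 over 10 without DMM replicate 4, 5 or 1. The split between the 2 beta chain genes is uncertain, since 22.7% of the 50-base windows of H2-DMb1 transcripts and 24.8% of those of H2-DMb2 are shared with another gene.

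H2-Oa and H2-Ob encode H2-DO, which binds H2-DM and restrains it, mainly in B cells and some dendritic cells. H2-Oa stood at 2.22, 2.77, 1.74, 2.50 and 2.82 CPM in PBS and at 1.73, 1.89, 0.623, 0 and 1.03 CPM in DMM kidneys, from 31 to 48 counts per PBS library and from 0 to 30 per DMM library. DMM replicate 2 alone was inside the PBS range, and DMM replicate 4 had no H2-Oa count. H2-Ob stood at 4.50, 7.36, 3.60, 3.51 and 6.82 CPM in PBS and at 4.88, 5.80, 2.38, 1.09 and 3.65 CPM in DMM kidneys, with 2 DMM kidneys, replicates 3 and 4, below the PBS range. The log2 fold change of H2-Oa was -1.19 (edgeR: adjusted p = 0.497, standard error 0.60) over 10 libraries and -1.54 (edgeR: adjusted p = 0.254, standard error 0.71) over 8, and without DMM replicate 4 it was -0.87 and -1.13, and over the 8 without DMM replicate 2 it was -2.21. For H2-Ob it was -0.54 (edgeR: adjusted p = 0.599, standard error 0.40) and -0.78 (edgeR: adjusted p = 0.376, standard error 0.46), and it moved to -0.30 and -0.49 without DMM replicate 4 and, over the 8 libraries, to -1.23 without DMM replicate 2. At these low counts the standard errors were the largest of the 10 genes.

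Ciita (chromosome 16, 10480059 to 10528418) encodes the transactivator without which class II genes are barely transcribed. It stood at 72.2, 83.8, 82.4, 55.2 and 89.5 CPM in PBS and at 81.0, 61.3, 39.2, 47.8 and 42.3 CPM in DMM kidneys. DMM replicates 3, 4 and 5 were below all PBS kidneys, and here replicate 3, not replicate 4, was the lowest. The log2 fold change was -0.50 (edgeR: adjusted p = 0.430, standard error 0.21) over 10 libraries and -0.66 (edgeR: adjusted p = 0.0757, standard error 0.19) over 8, the smallest adjusted p among the members in the 8 libraries. Ciita overlaps Dexi on the opposite strand. Whether counting used the strand is not given in the sources used here, and Dexi itself had at most 318 counts in any library, against 691 to 1522 for Ciita.

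**Figure D1:**
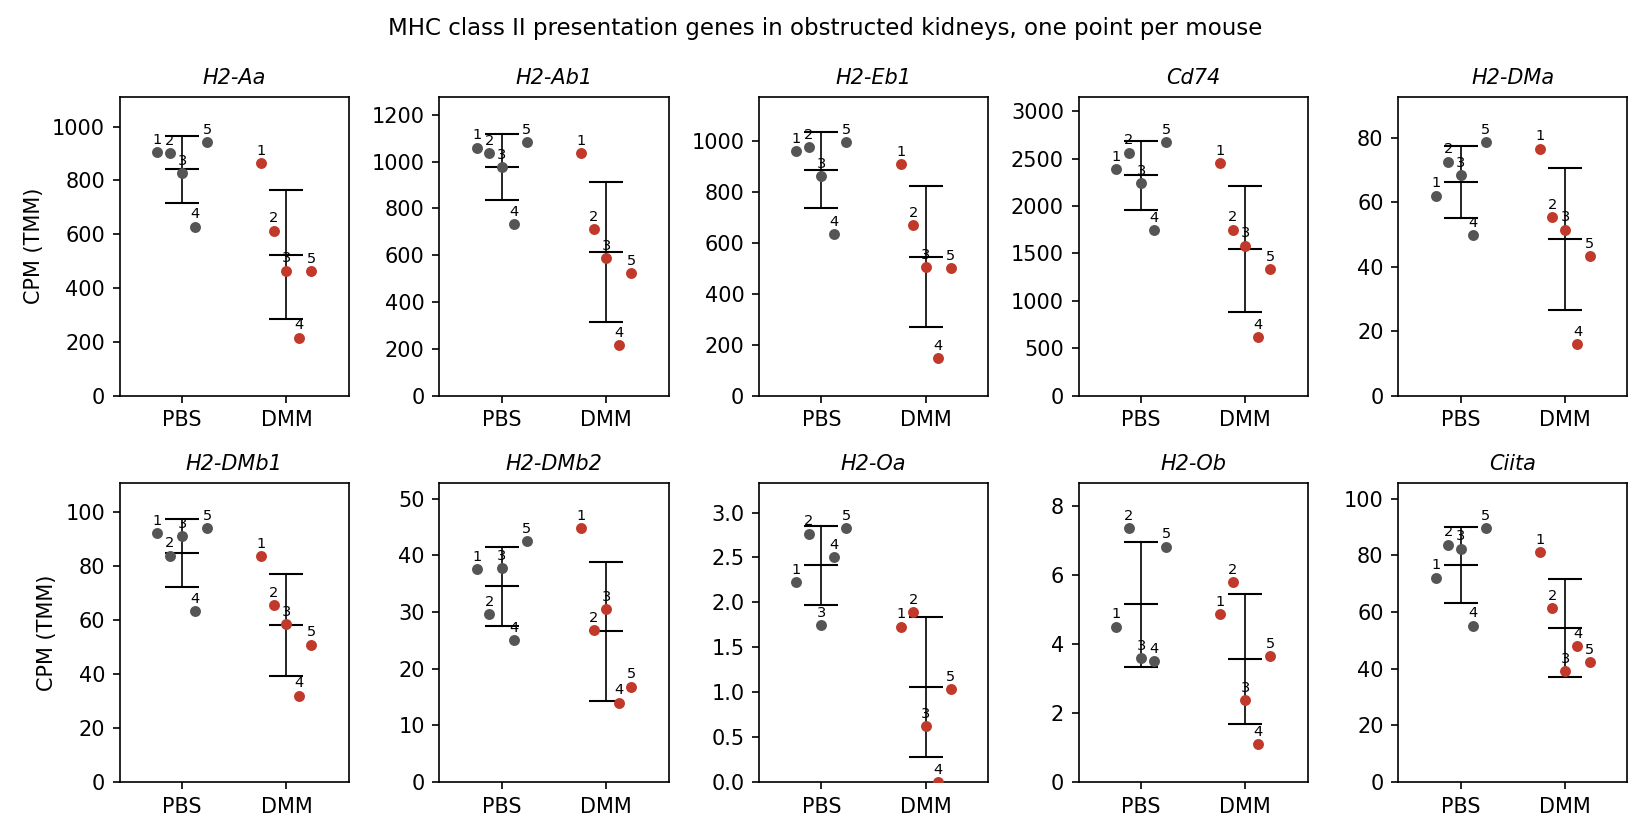
CPM (TMM-scaled, vertical axis) of each of the 10 genes in PBS (grey) and DMM (red) kidneys, 1 point per mouse with its replicate number, and bars for the mean and SD of 5 mice. DMM replicate 1 lies within the PBS range for 8 genes, just below the lowest PBS value for H2-Oa (1.73 against 1.74 CPM) and above the highest for H2-DMb2, and DMM replicate 4 is the lowest kidney for every gene except Ciita.

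Counted over the group, 0 of 10 members were called lower over all 10 libraries (adjusted p below 0.05 in edgeR, fold above 1.5), as were 0% of all 16505 tested genes. DESeq2 also called 0 members, against 0.107% of all genes. With p below 0.05 before adjustment, edgeR had 3 members lower whatever their fold (H2-Aa, H2-DMb1 and Ciita), against 6.49% of all genes, and 1 of them, H2-Aa, also had a fold above 1.5, against 4.11%. No member had every DMM kidney below every PBS kidney, against 1.16% of genes. All 10 members had a log2 fold change below 0, against 47.2% of genes, with a median of -0.57 against 0.02 over all tested genes.

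Over the 8 libraries edgeR called 0 of 10 members lower, against 3.56% of 16550 tested genes, while 6 members passed the same p and fold thresholds before adjustment, against 7.24%. Those 6 were H2-Aa, H2-Ab1, H2-Eb1, Cd74, H2-DMb1 and Ciita. The groups did not overlap for 3 members, H2-Aa, H2-Ab1 and H2-Oa, against 10.6% of genes, and all 10 log2 fold changes were below 0, against 47.6%. Their median was -0.80, from -0.61 for H2-DMb2 to -1.54 for H2-Oa. The members were measured in the same libraries, so that their count does not stand for 10 separate results.

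The tool and DMM replicate 4 decided the count over the 8 libraries. With DESeq2, H2-Aa, H2-Ab1 and Ciita were called lower (adjusted p = 0.0215, 0.0442 and 0.0272, DESeq2), 3 of 10 members against 3.02% of genes. Without DMM replicate 4, the library with the lowest values, edgeR called 6 members lower, against 7.61% of genes: H2-Aa, H2-Ab1, H2-Eb1, Cd74, H2-Oa and Ciita. For 5 of these 6, all but Ciita, both the log2 fold change and its standard error were then nearer 0, with H2-Aa at -0.72 (edgeR: adjusted p = 0.00936, standard error 0.16), Cd74 at -0.59 (edgeR: adjusted p = 0.0197, standard error 0.15) and Ciita at -0.66 (edgeR: adjusted p = 0.0319, standard error 0.19). Without DMM replicate 2, 1 member, Ciita, was called, against 3.38% of genes. Leaving out any of the other 6 of the 8 libraries gave 0 calls. Among the 10 libraries, leaving out DMM replicate 1 gave adjusted p-values from 0.0681 for Ciita to 0.429 for H2-Ob (edgeR) and still 0 members called, against 2.60% of genes.

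**Figure D2:**
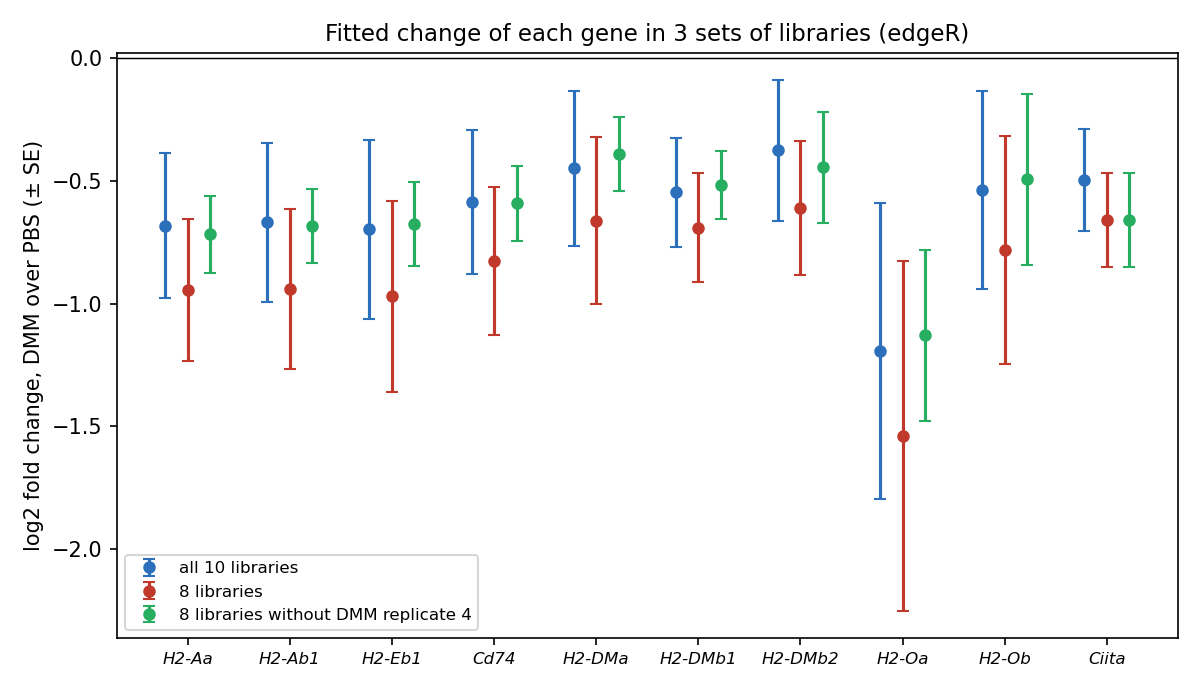
Log2 fold change of DMM over PBS with its standard error (edgeR, vertical axis) for each of the 10 genes over all 10 libraries (blue), over 8 libraries (red) and over those 8 without DMM replicate 4 (green). All points lie below 0, and H2-Aa is at -0.68, -0.94 and -0.72 in the 3 sets.

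Levels of different genes were compared as CPM per kilobase of the deposited gene length. In PBS kidneys the order was Cd74 at 1647 ± 257, H2-Eb1 at 748 ± 127, H2-Ab1 at 597 ± 86.7, H2-Aa at 449 ± 67.2, H2-DMb1 at 57.1 ± 8.50, H2-DMa at 40.4 ± 6.72, H2-DMb2 at 20.2 ± 4.09, Ciita at 8.04 ± 1.42, H2-Oa at 1.84 ± 0.337 and H2-Ob at 1.64 ± 0.576 CPM per kilobase (SD, n = 5). The ranges of PBS kidneys overlapped between H2-Eb1 and H2-Ab1, H2-Ab1 and H2-Aa, H2-DMb1 and H2-DMa, and H2-Oa and H2-Ob. Within each of the 5 PBS kidneys the order of the first 8 genes was nevertheless the same, and only H2-Oa and H2-Ob changed places, with H2-Oa higher in 3 of 5. In DMM kidneys Cd74 was again highest, at 1097 ± 471 CPM per kilobase, and H2-Oa lowest, at 0.803 ± 0.596.

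Ratios of the chain genes, Cd74 and Ciita were farthest from the PBS range in DMM replicate 4. The ratio of Cd74 to H2-Ab1 per kilobase was 2.62 to 2.87 in PBS kidneys and 2.75, 2.85, 3.12, 3.35 and 2.95 in DMM replicates 1 to 5, above the PBS range in replicates 3, 4 and 5. H2-Aa over H2-Ab1 was 0.741 to 0.761 in PBS kidneys and 0.730, 0.753, 0.690, 0.876 and 0.770 in DMM replicates 1 to 5, with only replicate 2 inside the PBS range. H2-Eb1 over H2-Ab1 was 1.19 to 1.30 in PBS kidneys and 1.19 to 1.32 in DMM replicates 1, 2, 3 and 5, against 0.957 in replicate 4, the only kidney with H2-Eb1 below H2-Ab1. H2-Ab1 over Ciita was 69.1 to 85.5 in PBS kidneys, 67.7 to 87.4 in those 4 DMM kidneys and 26.1 in DMM replicate 4, where the chain genes were further below the PBS kidneys than Ciita was. The part that the fewer detected genes and the mitochondrial share of that library play in these ratios was not tested.

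Of 15 genes that act with class II, 14 could be tested. Over the 8 libraries 2 of them, Ctss and Cd4, were called lower, against 3.56% of all tested genes. The median log2 fold change was -0.23, against -0.16 over all 10. Ctss, the cathepsin that trims the invariant chain in dendritic cells and macrophages, averaged 383 ± 47.2 CPM in PBS and 151 ± 26.3 CPM in DMM kidneys (SD, n = 4 each), a log2 fold change of -1.34 (edgeR: adjusted p = 0.00192, standard error 0.15), and was called without any of the 8 libraries in turn. Cd4, the coreceptor that binds class II, averaged 18.9 ± 4.44 and 8.26 ± 2.49 CPM (-1.19 on the log2 scale, adjusted p = 0.0271 in edgeR, standard error 0.26), and was no longer called without PBS replicate 2, 4 or 5 or DMM replicate 3 or 5. Over all 10 libraries their log2 fold changes were -0.96 and -0.96 and neither passed (adjusted p = 0.378 for both, edgeR), while without DMM replicate 1 edgeR called 2 genes of the list lower.

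The other class II partners did not pass in edgeR over the 8 libraries, while DESeq2 called 5 of the list lower, adding Lag3, H2-Eb2 and Ifi30. Lag3, an inhibitory receptor for class II, had a log2 fold change of -1.80 (adjusted p = 0.0577, edgeR), the beta chain gene H2-Eb2 -1.64 (adjusted p = 0.0690, edgeR), and Ifi30, a thiol reductase of the endosome, -0.73 (adjusted p = 0.0755, edgeR). The endosomal protease cathepsin B (Ctsb) averaged 1202 ± 83.0 CPM in PBS and 935 ± 92.9 CPM in DMM kidneys (SD, n = 4 each). It had -0.36 (adjusted p = 0.126, edgeR). Every DMM kidney of the 8 libraries was below every PBS kidney for Ctsb, as for 10.6% of all tested genes. Cathepsin D (Ctsd), cathepsin L (Ctsl) and legumain (Lgmn) had 0.27, -0.14 and 0.22, and Ctsd had the highest level per kilobase of this list. The peptidase Sppl2a, the ubiquitin ligases March1 and March8, the CD74 ligand Mif and its coreceptor Cd44 had -0.02, -0.32, 0.35, -0.05 and 0.07. The adjusted p of March8 was 0.0993 (edgeR). The summed level of the list relative to the PBS mean was 0.962 to 1.05 in PBS kidneys, 0.990 to 0.994 in DMM replicates 1, 2, 3 and 5, and 0.767 in DMM replicate 4. H2-Ea-ps, the gene of the E alpha chain, which mice of the b haplotype such as C57BL/6 do not express, had at most 1 count in any library and was not tested. Without DMM replicate 4, 6 genes of this list were called lower, and without PBS replicate 2, 4 or 5 or DMM replicate 3 or 5, 1 was.

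The proteins on which CIITA docks at class II promoters are the RFX complex, NF-Y and CREB. None of their 7 genes was called in either set of libraries by edgeR or DESeq2, and none passed the same p and fold thresholds before adjustment. Over the 8 libraries Rfx5, Rfxap and Rfxank had log2 fold changes of -0.31, -0.43 and -0.18, and Nfya, Nfyb, Nfyc and Creb1 -0.34, 0.19, 0.26 and 0.42. Over the 8 libraries all DMM kidneys were below all PBS kidneys for 2 of the 7, Rfx5 and Rfxap (adjusted p = 0.191 and 0.376, edgeR), against 10.6% of all genes. With all 10 libraries this held for Rfxap (-0.38) and not for Rfx5 (-0.19), against 1.16%, and the median of the 7 was -0.18 over the 8 libraries and -0.17 over the 10. The summed level of the 7 genes was 0.961 to 1.08 of the PBS mean in PBS kidneys and 0.953 to 1.20 in DMM kidneys, with the highest value in DMM replicate 4, and Nfyc had the highest level per kilobase.

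Of 13 genes of the interferon-gamma axis, which induces Ciita, 11 were tested. Of these 11, 7 were called lower over the 8 libraries, against 3.56% of all tested genes. The median log2 fold change of the 11 was -1.39. The chemokine Cxcl10 averaged 152 ± 39.6 CPM in PBS and 21.0 ± 4.75 CPM in DMM kidneys (SD, n = 4 each), a log2 fold change of -2.86 (edgeR: adjusted p = 0.000239, standard error 0.23). Gbp2, the gene of highest level per kilobase, Irf1, which drives the interferon-induced Ciita promoter, and the chemokine Cxcl9 had -1.89, -1.39 and -2.02 (adjusted p = 0.00203, 0.0115 and 0.0293, edgeR). Cxcl10, Gbp2 and Irf1 were called without any of the 8 libraries in turn, and 4 of 11 genes were called without PBS replicate 1, 2 or 5 or DMM replicate 3 or 5. In DMM replicate 1 Cxcl10 was at 138 CPM, within the PBS range of 113 to 199.6 CPM, and over all 10 libraries 0 of 11 genes were called by edgeR and 1 by DESeq2, against 6 lower by these thresholds before adjustment. Without DMM replicate 1, edgeR called 6 of 11 lower in the remaining 9 libraries. Ifng itself had at most 7 counts in any library, and 0 in DMM replicates 4 and 5. It was not tested, nor was Ido1, with at most 6 counts, and both are named only for that reason. The median over all 10 libraries was -1.06, with Cxcl10 at -1.70 (44.5 ± 52.7 CPM in 5 DMM kidneys), Gbp2 at -1.36, Irf1 at -1.06 and Cxcl9 at -1.68.

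Class I presentation, by which cells show peptides from their own cytosol to CD8 T cells, served as the comparison. Of its 10 genes, 10 were called lower over the 8 libraries, against 3.56% of all tested genes. Their log2 fold changes were from -2.13 to -1.17, with a median of -1.40. The class I transactivator Nlrc5 averaged 96.4 ± 12.6 CPM in PBS and 26.4 ± 3.55 CPM in DMM kidneys (SD, n = 4 each), a log2 fold change of -1.87 (edgeR: adjusted p = 0.000188, standard error 0.14), and the peptide transporter Tap1 255 ± 29.4 and 58.5 ± 16.7 CPM (-2.13; edgeR: adjusted p = 0.000889, standard error 0.22). B2m, the light chain of class I and the most abundant per kilobase, averaged 1398 ± 307 and 582 ± 77.3 CPM (-1.27; edgeR: adjusted p = 0.00683, standard error 0.19). Without PBS replicate 5 or DMM replicate 5, 6 of 10 were called. Over all 10 libraries 0 were called by edgeR and 1 by DESeq2, against 10 of 10 lower by these thresholds before adjustment. With DMM replicate 1 left out of the 10, edgeR called 10 of 10 lower, against 2.60% of genes. The median over all 10 libraries was -1.04, with Nlrc5 at -1.24, Tap1 at -1.40 and B2m at -1.01.

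The summed CPM of the class II members over that of the class I genes was 0.922, 1.33, 0.907, 0.767 and 0.927 in PBS replicates 1 to 5 and 1.16, 1.56, 1.20, 0.948 and 1.26 in DMM replicates 1 to 5. The ratio was 0.970 ± 0.210 in PBS and 1.22 ± 0.221 in DMM kidneys (SD, n = 5 each), and the groups overlapped. Whether the change of class II differed from that of class I was not tested.

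Lists of leukocyte markers were examined in the same kidneys. Over the 8 libraries edgeR called 3.56% of all tested genes lower, the share to set beside the count of each list. Of 10 macrophage markers, 3 were called lower over the 8 libraries, the Fc receptor Fcgr1 (log2 fold change -1.74, adjusted p = 0.000385, edgeR), Cd68 (-0.97, adjusted p = 0.0108, edgeR) and the complement gene C1qb (-1.35, adjusted p = 0.0479, edgeR), with a median of -0.96. Mertk, a receptor for the uptake of dying cells, was the only one above 0, at 0.44 (adjusted p = 0.0762, edgeR). DESeq2 called 7 lower. The median with all 10 libraries was -0.66, with Fcgr1 at -1.10, Cd68 at -0.72 and C1qb at -0.98. In edgeR over the 8, leaving out DMM replicate 4 gave 7, C1qb among them, and leaving out any other of the 8 libraries gave 2, without C1qb. Their summed level relative to the PBS mean was 1.05, 1.05, 0.832, 0.944 and 1.12 in PBS replicates 1 to 5 and 0.989, 0.680, 0.555, 0.406 and 0.554 in DMM replicates 1 to 5, with Lyz2 most abundant per kilobase. The class II members gave 1.05, 1.09, 0.981, 0.744 and 1.13 and then 1.05, 0.748, 0.627, 0.247 and 0.562 on the same scale. In both sums DMM replicate 1 was inside the PBS range and replicates 3, 4 and 5 were below it.

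The ratio of summed CPM of class II members to macrophage markers was 2.31 ± 0.322 in PBS and 2.27 ± 0.493 in DMM kidneys (SD, n = 5 each), a difference smaller than either SD. It was 2.34 to 2.61 in 4 DMM kidneys and 1.40 in DMM replicate 4. To 4 pan-leukocyte markers the ratio was 8.97 ± 1.46 and 8.97 ± 3.37, with 9.99 to 11.5 in 4 DMM kidneys and 3.04 in DMM replicate 4. Of those 4 markers 2, Laptm5 (log2 fold change -0.74, adjusted p = 0.0108, edgeR) and Coro1a (-0.92, adjusted p = 0.0107, edgeR), were called lower over the 8 libraries, 4 without DMM replicate 4, and 3 by DESeq2, while over all 10 libraries they were at -0.54 and -0.70. Of all tested genes, edgeR called 3.56% lower over the 8 libraries. Laptm5 was the most abundant of the 4 markers per kilobase. Their summed level was 0.880 to 1.12 of the PBS mean in PBS kidneys and 0.922, 0.669, 0.487, 0.726 and 0.495 in DMM replicates 1 to 5. The part of leukocyte number in the class II values was not tested.

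Conventional dendritic cell markers had 2 of 10 called lower over the 8 libraries, the migration receptor Ccr7 (log2 fold change -1.64, adjusted p = 0.00963, edgeR) and the integrin Itgax (-1.30, adjusted p = 0.0148, edgeR), with a median of -0.76. Clec9a and Xcr1, which mark the cross-presenting subset, had -0.80 and -1.04 (adjusted p = 0.0574 and 0.0867, edgeR). DESeq2 called 4. The median was -0.59 with all 10 libraries, with Ccr7 at -1.25 and Itgax at -0.97. In edgeR over the 8, 5 were called with DMM replicate 4 left out, and 1 with PBS replicate 5 or DMM replicate 5 left out. The summed level, led by Sirpa per kilobase, was 0.935 to 1.09 of the PBS mean in PBS kidneys and 0.979, 0.855, 0.652, 0.627 and 0.694 in DMM replicates 1 to 5. Of 5 plasmacytoid dendritic cell markers 1 was called lower, Bst2 (-3.14, adjusted p = 0.00819, edgeR), which interferon also induces in many other cells and which was at -1.99 over all 10 libraries. Bst2 was the most abundant of that list per kilobase, and the summed level was 0.681 to 1.26 in PBS kidneys, 0.847 in DMM replicate 1 and 0.261 to 0.371 in the other 4.

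B cell markers were near the limit of detection, and none of 7 was called lower over the 8 libraries, while 1, the complement receptor gene Cr2, was called higher, against 2.73% of all tested genes called higher. Of the 7 markers, 5 had a log2 fold change below 0 over the 8 libraries. The median of the list was -0.65, against -0.25 over all 10 libraries. Cr2 averaged 1.54 ± 0.122 CPM in PBS and 2.84 ± 0.239 CPM in DMM kidneys (SD, n = 4 each, adjusted p = 0.0407, edgeR), and among fits without 1 library it was called only in that without DMM replicate 4. The fit without DMM replicate 4 also called Pax5, a B cell transcription factor, lower. Cr2 was also not called with library size alone or without the filter on low counts, and the stricter filter dropped it. With the replicate number as a block, no gene at all was called. DESeq2 called Cr2 higher (adjusted p = 0.0164, DESeq2), and with RLE size factors 1 B cell marker was called higher. With all 10 libraries Cr2 was at 0.55 (adjusted p = 0.493, edgeR). Over the 8 libraries DESeq2 called 1 B cell marker lower, and Pax5 alone was lower by the thresholds before adjustment (edgeR). Cd79b, the most abundant per kilobase, averaged 3.86 ± 0.412 and 3.66 ± 0.973 CPM, and Cd79a had 0 counts in DMM replicate 4. Their summed level was 0.827 to 1.08 of the PBS mean in PBS and 0.658 to 1.10 in DMM kidneys, with overlap. Of 7 T cell markers 0 were called lower by edgeR and 3 by DESeq2 over the 8 libraries, against 6 before adjustment, with a median log2 fold change of -1.14, against -0.91 over all 10 libraries. By edgeR over the 8, 4 were called without DMM replicate 2 and 2 without DMM replicate 4. Their summed level, led by Trbc2 per kilobase, was 0.713 to 1.38 in PBS kidneys and 0.907, 0.790, 0.313, 0.335 and 0.383 in DMM replicates 1 to 5.

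**Figure D3:**
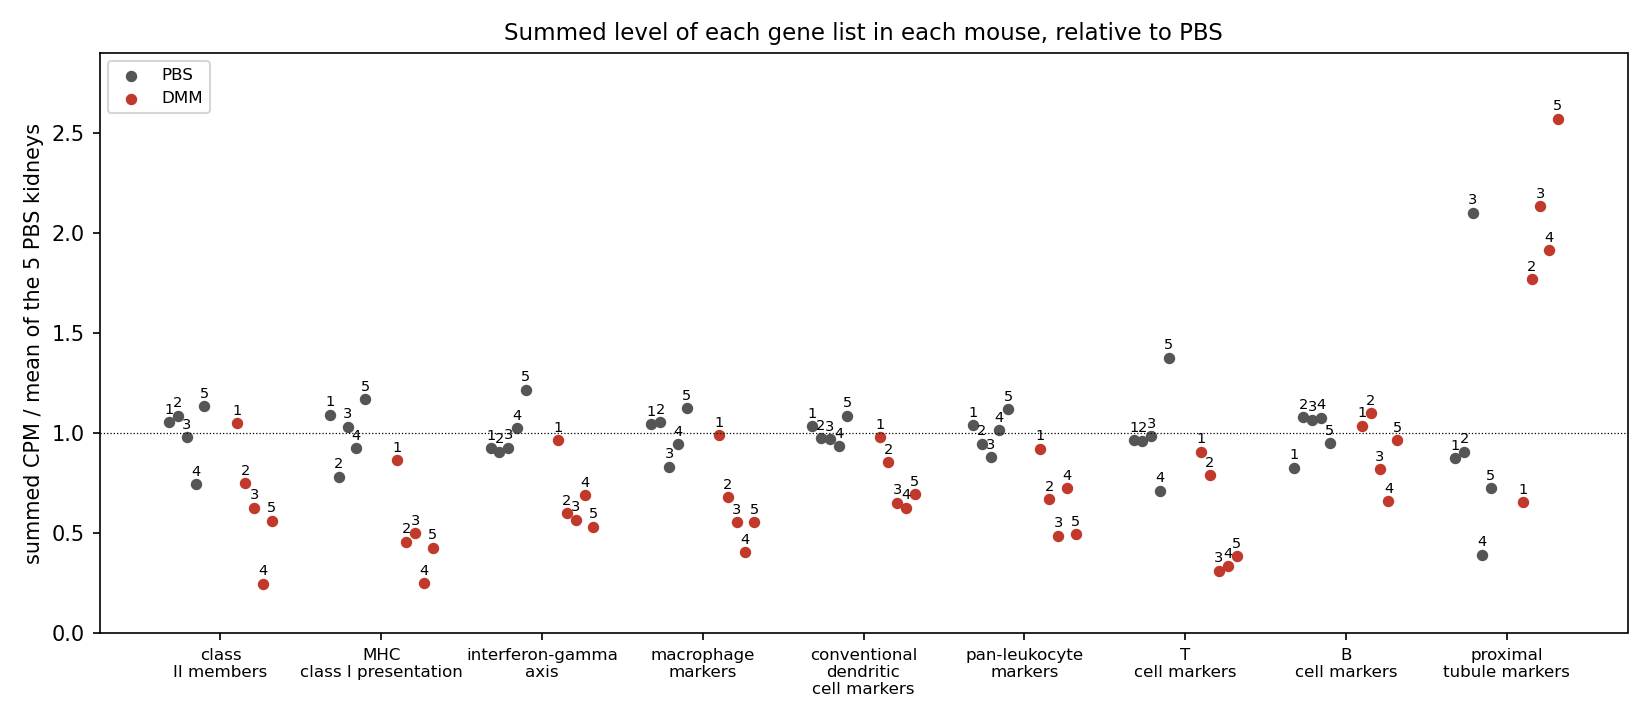
Summed CPM of each gene list in each kidney, divided by its mean over the 5 PBS kidneys (vertical axis), with 1 point per mouse and its replicate number, PBS in grey and DMM in red. Class II members stand at 0.247 in DMM replicate 4 and 1.05 in DMM replicate 1, and proximal tubule markers at 2.10 in PBS replicate 3.

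Proximal tubule markers had log2 fold changes in the opposite direction. Of 10 proximal tubule markers, 5 were called higher over the 8 libraries (Slc5a12, Cubn, Lrp2, Slc13a3 and Hnf4a), against 2.73% of all tested genes. Their adjusted p was 0.00812 to 0.0225 (edgeR), and the median log2 fold change of the 10 was 1.66. In all 10 libraries the median was 0.96, with these 5 genes at 0.53 to 1.24 and none called. Their summed level, led by Slc27a2 per kilobase, was 0.875, 0.907, 2.10, 0.392 and 0.725 of the PBS mean in PBS replicates 1 to 5 and 0.655, 1.77, 2.14, 1.91 and 2.57 in DMM replicates 1 to 5. PBS replicate 3 was thus among the DMM kidneys in tubule markers while its class II members stood at 0.981, and DMM replicate 1 was among the PBS kidneys in both. Without PBS replicate 1 or 5 or DMM replicate 3 or 5, 3 were called higher, and without DMM replicate 4, 9, against 1129 of 16828 tested genes. DESeq2 called 9 higher over the 8 libraries, against 749 of 30116 genes.

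Of 7 markers of other kidney segments, 2, Slc12a1 and Slc12a3, were called higher (log2 fold change 1.53 and 0.95, adjusted p = 0.0206 and 0.0497, edgeR), 4 without DMM replicate 4, 1 without DMM replicate 2 and 0 without PBS replicate 2, 4 or 5 or DMM replicate 3 or 5. Of all tested genes, edgeR called 2.73% higher over the 8 libraries. DESeq2 called 3 of the 7 markers. Slc12a1 and Slc12a3 were at 0.94 and 0.61 over all 10 libraries. Umod was the most abundant per kilobase, and the sum was 0.651 to 1.52 of the PBS mean in PBS and 0.720 to 1.84 in DMM kidneys. Of 4 tubule injury markers 0 were called over the 8 libraries by edgeR or DESeq2, though without DMM replicate 4 edgeR called Vcam1 lower, and 0 passed the same p and fold thresholds before adjustment. Havcr1, the most abundant per kilobase, was at 0.16 on the log2 scale (8 libraries), and the sum was 0.785 to 1.22 in PBS and 0.804 to 1.31 in DMM kidneys. The part of tubular RNA in the class II values was not tested. Over all 10 libraries edgeR called 0 genes in any of these marker lists, while by the thresholds before adjustment 6 macrophage, 2 conventional dendritic, 1 plasmacytoid, 0 B, 4 T and 2 pan-leukocyte markers were lower and 2 proximal tubule markers higher. DESeq2 called 1 of them, a conventional dendritic cell marker. Without DMM replicate 1, edgeR called 2 macrophage, 2 conventional dendritic, 1 plasmacytoid and 2 pan-leukocyte markers lower, and 0 of the B cell, T cell, tubule and injury markers in either direction.

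Of the 10 members, 8 lie between 34092340 and 34316199 of chromosome 17 (mm10), in the MHC. Class II promoters share an arrangement in which an X box, bound by RFX, lies upstream of a Y box, bound by NF-Y. RefSeq promoter windows (250 bases before to 50 after a start, GRCm38.p6) were given for 7 of the 10 members, in 8 windows, the other 3 being H2-Ab1, Cd74 and Ciita. The Y box core CCAAT, searched on both strands, was in 7 of the 8 member windows and in 37.4% of all 32851 windows, and the X box half-site GCAAC, on both strands, in 5 of 8 and 35.2%. GCAAC followed by ATTGG, which is CCAAT read on the other strand, with 20 to 36 bases between, searched on both strands, was in 4 of the 8 member windows, of 4 members, and in 0.865% of all windows. Among genes of the other lists, H2-Eb2 and Cd68 also held the pair.

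The 4 stretches are shown because they hold the spaced pair. Each is written 5′ to 3′ on the strand of its gene, with GCAAC and ATTGG in capitals: H2-Aa, chr17:34287862-34287914, minus strand, with 28 bases between the motifs; H2-Eb1, chr17:34305765-34305817, plus strand, 27 bases; H2-Oa, chr17:34092293-34092345, plus strand, 28 bases; and H2-Ob, chr17:34238805-34238857, plus strand, 25 bases. They lie upstream of the annotated starts, with the last bases of the H2-Oa stretch inside the gene of the count table.
H2-Aa: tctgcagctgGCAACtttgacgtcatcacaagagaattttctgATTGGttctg
H2-Eb1: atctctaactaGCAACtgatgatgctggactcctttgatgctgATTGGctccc
H2-Oa: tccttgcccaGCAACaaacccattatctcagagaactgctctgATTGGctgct
H2-Ob: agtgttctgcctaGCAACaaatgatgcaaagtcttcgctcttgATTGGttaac

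The pair was not in the windows of H2-DMa, H2-DMb1 or H2-DMb2, and the annotated starts of the H2-DMa windows lie 12350 and 9664 bases, and that of the H2-DMb2 window 1942 bases, from the start of the gene in the count table. A match of these letters is a description of the window, and binding was not measured in these kidneys.

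The mean of the members' centred log2 CPM summarised them, at 0.04, 0.14, -0.05, -0.38 and 0.24 relative to the PBS mean in PBS replicates 1 to 5 and 0.06, -0.30, -0.76, -2.04 and -0.80 in DMM replicates 1 to 5. Of the tested protein-coding genes outside the group, those with the highest Pearson correlation to it over the 10 libraries were Zfp385a (r = 0.989), Map4k1 (0.981), Ccdc102a (0.980), Lyz2 (0.977), Cst3, Sept1, Trim72, Lat and Sirpa (0.976 each) and Tnrc18 (0.975). Map4k1, a kinase of blood cells, Lat, an adaptor of the T cell receptor, and Lyz2, the lysozyme of myeloid cells, are leukocyte genes. The others, Zfp385a with the highest r among them, were not sorted by cell type. Without DMM replicates 4 and 5, the libraries farthest from the median, the r of these 10 genes was 0.859 to 0.939 over 8 libraries. They were picked as the highest of all, so that these values are a description only.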

How the data were processed

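Whole-kidney RNA of 5 PBS-treated and 5 DMM-treated mice with UUO was sequenced, 1 library per mouse. The authors aligned reads to mm10 with HISAT2 2.0.5 (per the submitters' processing notes) and deposited raw read counts per gene. The counting tool, annotation release and use of strand are not given in the sources used here. The deposited FPKM values (counts per kilobase and library total) were not used. The deposited table also holds the authors' group means (a signal, read counts scaled by size factors of DESeq2), used only to find each library's weight, and their log2 fold changes and p-values from DESeq2, which were not used.

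Genes kept by filterByExpr were scaled by TMM and tested with edgeR 4.0.16 (quasi-likelihood F test, R 4.3.3) over 10 and over 8 libraries, with Benjamini-Hochberg adjustment over all tested genes. A gene was called where the adjusted p was below 0.05 and the fold above 1.5. The F statistic and fold change gave the standard error. Log2 CPM had a prior count of 2. The fit was run on simulated counts that held no outlying library, which leaves its behaviour with such libraries untested. Alternatives were DESeq2 1.42.0, scaling by RLE or by library size alone, other filters and call rules, the replicate number as a block and each library left out in turn. Shared 50-base windows came from GENCODE vM21 transcripts.

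Members and lists were chosen with earlier results of these data known. Named were all members, each list's gene of highest level per kilobase, up to 5 genes of smallest p over the 8 libraries (plus genes against their list's direction and any gene of the class II partner and promoter-binding lists), and the 10 genes of most similar pattern. Total counts were 15722527 to 19475833 per library, and reads without molecular identifiers are not independent molecules.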

Additional observations from a re-analysis of the deposited data

Results flagged for a closer look

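Among 76 groups of 5 libraries examined, 8 values lay far from the others of their group, and chance alone gives about 1 in 20. Of these, 5 belonged to DMM replicate 4. Its ratio of class II members to macrophage markers was 1.40, against 2.34 in the nearest DMM kidney, and its ratio to pan-leukocyte markers 3.04, against 9.99. Its ratio of H2-DMa to H2-DMb1 plus H2-DMb2 per kilobase was 0.328, against 0.548. The summed level of class II partners was 0.767 of the PBS mean in that library, against 0.990, and 20029 genes had a count, against 22898. In PBS replicate 2 the ratio of class II members to class I genes was 1.33, against 0.927 in the nearest PBS kidney. Plasmacytoid dendritic cell markers summed to 0.847 of the PBS mean in DMM replicate 1, against 0.371 in the nearest DMM kidney. The mitochondrial genome took 3.66% of the counts of PBS replicate 3, against 2.30% in the nearest PBS kidney. The causes were not tested.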

How the results depend on the processing

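Over all 10 libraries, edgeR called 0 members lower under each alternative fit and DESeq2 called 0, while p below 0.05 before adjustment with the fold above 1.5 gave 1. Over the 8 libraries edgeR called 0, DESeq2 3 and the unadjusted p with the fold change 6, and leaving out each library in turn gave 0 to 6 (1 without DMM replicate 2, 6 without DMM replicate 4). The causes were not tested. RLE size factors, library size alone, no filter, a stricter filter of 50 counts and the adjusted p alone each gave 0 in both sets. Single members kept the direction and side of the threshold in 159 of 159 alternative fits over 10 libraries and in 129 of 139 over 8, where the other 10 passed the threshold in the same direction. The stricter filter dropped H2-Oa, so that it has no value there. Libraries with the same replicate number did not deviate together (correlations of -0.06, 0.0792, 0.341, 0.124 and -0.223), and of the PBS libraries only replicate 2 correlated best with the DMM library of its own number. With the replicate block, edgeR called 0 members in both sets and 0 of 16550 genes over the 8 libraries. Among those 8, PBS replicate 1 and DMM replicate 3 have no partner of the same number. Only replicates 2, 4 and 5 then inform the change, so that this fit cannot tell whether the list calls hold. H2-Oa and H2-Ob had the fewest counts, at most 48 and 125 per library.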
